A study of Mus musculus with 32 samples.

Results

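Heavy and light polysome RNA of NIH 3T3/4E cells in serum was compared over 4 samples, 2 of each fraction, out of 16 samples in the series. They were found by their titles, which name the cells as 4E, the fraction as heavy or light and the state as basal, and they take up 8 of the 32 deposited columns. NIH 3T3 is an immortalised line of mouse embryo fibroblasts. NIH 3T3/4E cells are NIH 3T3 cells that ectopically overexpress the translation initiation factor eIF4E, a model the study describes as resistant to apoptosis and tumorigenic. In the basal state the cells were in complete growth medium, and in the serum stressed state, called starved here, they had been without serum for 16 h. Fractions 4 to 6 of the gradient make up the light pool, and 7 to 10 the heavy one. Every array was a 2-colour hybridisation of polysome RNA and 1 common reference, unfractionated poly(A) RNA from NIH 3T3 in full medium, so both fractions share the overexpressed eIF4E, the serum and the reference. The promoter that drives eIF4E, and whether the line is 1 clone or a pool, are not stated in the sources used here.

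An mRNA that is read by many ribosomes at once sediments far into a sucrose gradient, and one with few or no ribosomes stays near the top. Comparing heavy with light fractions therefore asks which transcripts of a cell carry many ribosomes relative to other transcripts. eIF4E binds the cap at the start of an mRNA and brings it to the small ribosomal subunit. It is held in check by the 4E-binding proteins, and mRNAs with long or structured leaders are known to be the most sensitive to its supply.

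Values are log2 ratios against the reference, centred on the median of each sample, for 15169 cDNA clones measured in all 16 samples. Another 78 of the 15247 clone rows had a missing value in at least 1 sample, although 15228 rows were complete in the 4 samples compared. Clones are given by the identifier of the NIH 15k mouse collection, since the files do not pair them with genes and 0 of the identifiers were found in the RefSeq gene table. Neither the level of eIF4E itself nor fibroblast markers could be checked in these samples. Whether the deposited ratio is sample over reference or the reverse is not stated. Differences are heavy minus light as coded, and a positive value does not by itself mean more RNA in the heavy fraction. Separate cultures for the samples of a fraction are not mentioned in the labels, and p-values then reflect only the spread between samples of a group, pooled over all 16 samples, which may be technical.

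The 4 samples were alike in width and separated by fraction. Across clones, the 2 heavy samples correlated at r = 0.68 and the 2 light samples at r = 0.64, while heavy with light gave 0.48 to 0.56. The median absolute deviation was 0.58 and 0.60 log2 units in the heavy samples and 0.53 and 0.51 in the light ones. The median SD between the samples of a fraction was 0.25 in both. All of these samples share the reference, which adds to every correlation.

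In serum, heavy and light RNA of the eIF4E cells differed by small amounts for most clones. The heavy minus light difference had its middle 50% between -0.33 and 0.34 log2 units and its middle 90% between -1.07 and 0.98. It exceeded 1 log2 unit at 717 clones on the positive side (4.73%) and 884 on the negative side (5.83%), and 2 log2 units at 27 (0.178%) and 57 (0.376%). The extremes were -3.23 and 4.16. No clone passed at an adjusted p of 0.05 (0 of 15169, 0%) by limma, the linear model with moderated variances that was fitted to all 16 samples. At an unadjusted p under 0.05 there were 1982 clones (13.1%), 942 positive (6.21%) and 1040 negative (6.86%), so the excess of small p-values lay on both sides. The smallest adjusted p was 0.0967 and was shared by 28 clones, and 34 clones (0.224%) lay under 0.1. The median 95% interval of a clone's difference reached 0.84 log2 units to either side.

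**Figure D1:**
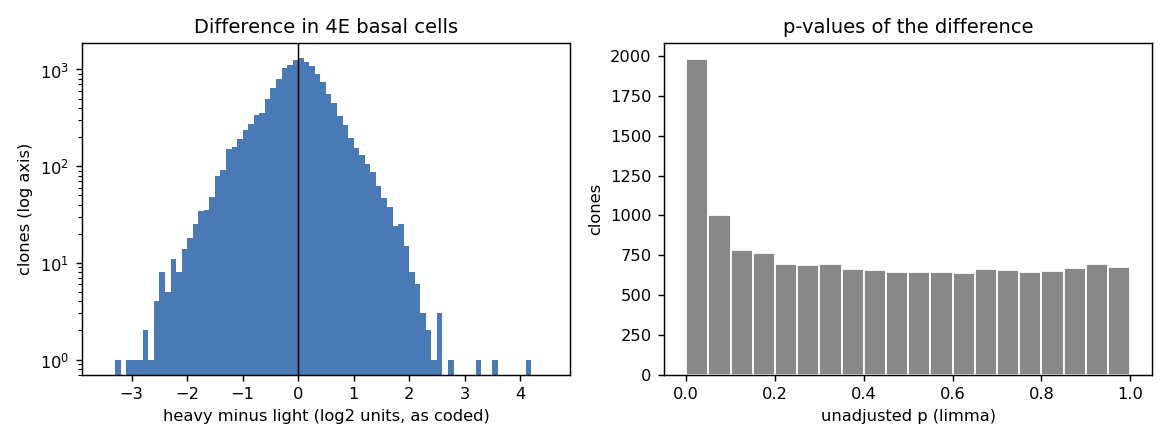
Left, histogram of the heavy minus light difference over 15169 clones in 4E basal cells (x in log2 units as coded, y the number of clones on a log axis). Right, histogram of the unadjusted limma p-values (y the number of clones). The differences run from -3.23 to 4.16, and the lowest bin of the p-values, under 0.05, holds 1982 clones.

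The count of calls moved with single samples. Without the 1st heavy sample 31 clones passed, without the 2nd heavy sample 11, without the 1st light sample 20 and without the 2nd light sample 1. In each of these fits the lone sample is assumed to vary like the samples of the other groups. With limma's array weights 39 of the 15169 clones passed (34 positive, 5 negative). These include all 34 clones that lay under an adjusted p of 0.1 without weights. With 2 samples a group, both must get the same weight in this fit, so the weights cannot single out a sample. The weight was 1.15 in the heavy and 1.16 in the light samples of 4E basal cells, and lowest, at 0.63, in the 4E heavy starved samples.

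The averaged and centred values of single samples show how often the fractions lie apart. Both heavy samples stood above both light samples at 3356 clones (22.1%) and below them at 3299 (21.7%), 43.9% together. The share was 46% in NIH 3T3 basal, 43.9% in 4E starved and 41.6% in NIH 3T3 starved cells. The share of the eIF4E cells in serum thus lay within the range of the other states, in which 0.316%, 0.956% and 0.198% of clones passed the adjusted test.

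Clone H3120E07 had the largest difference and the smallest p. Its heavy samples read -0.22 and 2.19 and its light samples -2.36 and -3.99, a difference of 4.16 (SE 0.63, adjusted p = 0.0967 by limma). The fractions did not overlap, but the heavy samples were 2.41 log2 units apart. In 3 of the 4 samples the deposited columns of this clone were equal. The difference was 5.36 without the 1st heavy sample (adjusted p = 0.000609) and 4.97 without the 1st light sample (adjusted p = 0.00793), but 2.95 without the 2nd heavy sample (adjusted p = 0.116) and 3.34 without the 2nd light sample (adjusted p = 0.17).

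Clone H3040C04 was more even. It read 2.39 and 1.77 in the heavy and -0.22 and -0.0037 in the light samples, a difference of 2.19 (SE 0.39, adjusted p = 0.0967 by limma). Its heavy samples stood well above the light ones, and in the other 3 states the clone also differed in the positive direction, by 1.30 in NIH 3T3 basal, 1.68 in 4E starved and 1.61 in NIH 3T3 starved cells.

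On the negative side the clones with the smallest p were H3158F09 and H3133F04. Clone H3158F09 read -2.10 and -1.62 in the heavy and -0.00030 and -0.41 in the light samples, and heavy minus light was -1.66 (SE 0.32, adjusted p = 0.0967). Clone H3133F04 read -0.77 and -1.28 in the heavy and 0.67 and 0.52 in the light samples, a difference of -1.62 (SE 0.32, adjusted p = 0.0967). For both, each heavy sample lay below each light sample, and the fractions were also separated in the same direction in all 3 other states.

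**Figure D2:**
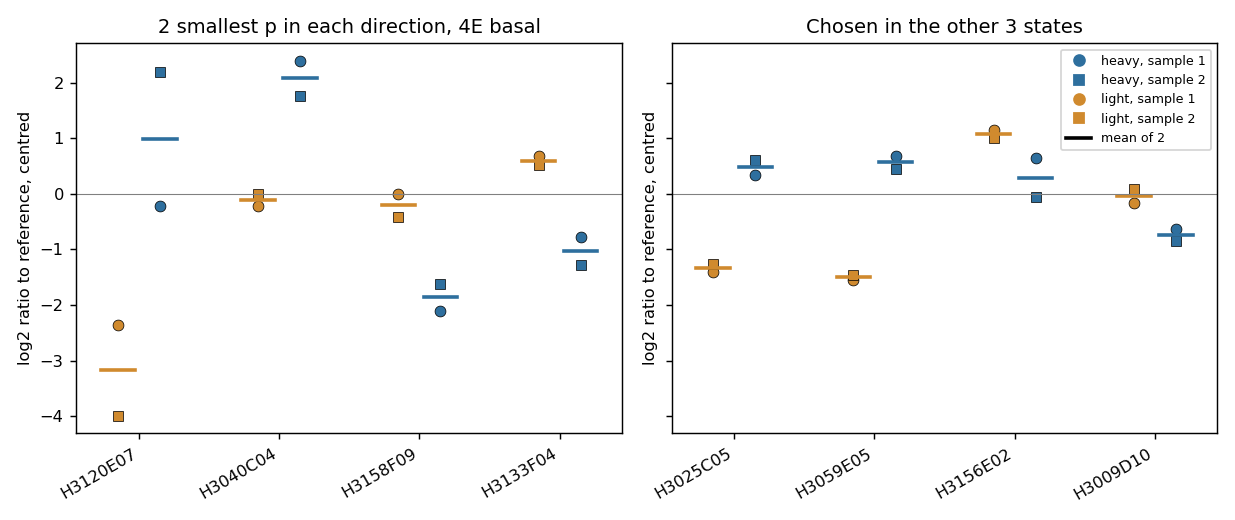
Centred log2 ratio to the reference of 8 clones in the 4 samples of 4E basal cells: blue heavy, orange light, circles sample 1, squares sample 2, bars the mean of 2. The left panel has the 2 clones with the smallest p in each direction in these cells, led by H3120E07 at 4.16 heavy minus light, and the right panel clones chosen in the other 3 states, where the heavy and light points of each clone lie apart on the same side as in those states.

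The 34 clones under an adjusted p of 0.1 were mostly positive, 29 (0.191%) against 5 (0.033%), although the negative tail was the heavier one in size. The 29 positive clones ranged from 1.48 to 4.16 in their difference with a median of 1.81, and the 5 negative ones from 1.45 to 1.89 in size with a median of -1.66. All 34 had separated fractions, against 43.9% of all clones, but their choice by p in the same samples favours this. Of the 29, 26 were positive in each of the other 3 states, and 27 were called there as positive on the mean of those states. Of the 5 negative ones, 4 were negative in each other state and 4 were called there. The fit gives each clone 1 variance for all states, so the choice by a small p also favours a call in the other states. The median SE was 0.34 for the 29 clones and 0.32 for the 5, against 0.39 over all clones. Over all 15169 clones, 5525 had the sign of 4E basal cells in each other state, and 2092 were called there with that sign.

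The 57 clones beyond -2 include none of these 5 negative clones. They had a median difference of -2.26, but their median SE was 0.74, against 0.39 over all clones. Their median level over the 12 samples of the other states was -1.32, low against the reference as coded. Of these 57, 15 were negative in all 3 other states and 3 were called there as negative. The median difference of the 57 in the other states was -0.03. Among the 27 clones beyond 2 on the positive side, 17 were positive in all 3 other states, 9 were called there, and the median there was 0.69. The counts over all 15169 clones were 5525 with the same sign in all 3 other states and 2092 called there with that sign. Equal columns in at least 1 of the 4 samples occurred for 29 of the 57 and 13 of the 27 clones, and for 38.0% of all clones. The part of equal columns and of low level in these differences was not tested.

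How far the difference repeats was read from the sample pairs of the title numbers. Across clones, heavy minus light of sample 1 and of sample 2 correlated at r = 0.41 (Spearman's rho 0.43), and 9674 clones (63.8%) had the same sign in both. Sample 2 had the longer tails. It exceeded 2 log2 units in either direction at 360 clones and ran from -5.80 to 8.28, while sample 1 exceeded 2 log2 units at 169 clones and ran from -4.07 to 4.73. Only 8 clones exceeded 2 log2 units in the same direction in both. When heavy sample 1 was set against light sample 2 and the reverse, r was 0.22. These correlations are descriptions over 15169 clones, which are not independent replicates.

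Clones with unequal columns in all 4 samples repeated better than the others. There were 9401 of them (62.0%), with r = 0.51 between the sample differences, and 47.3% had separated fractions. Among the 4406 clones with equal columns in 1 sample r was 0.23 and 38.4% were separated, and among the 1187 with equal columns in 2 samples r was 0.16 and 38.3% were separated. The difference was wider in the first set, with a median absolute deviation of 0.55 against 0.41 in both other sets. The median residual SD was 0.39 in these 3 sets. Among the 165 clones with equal columns in 3 samples r was 0.23, 33.3% were separated and the median residual SD was 0.46. A further 10 clones had equal columns in all 4 samples, and 20% of them were separated. The residual SD is pooled over all 16 samples and does not give the spread between the 4E basal samples alone.

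**Figure D3:**
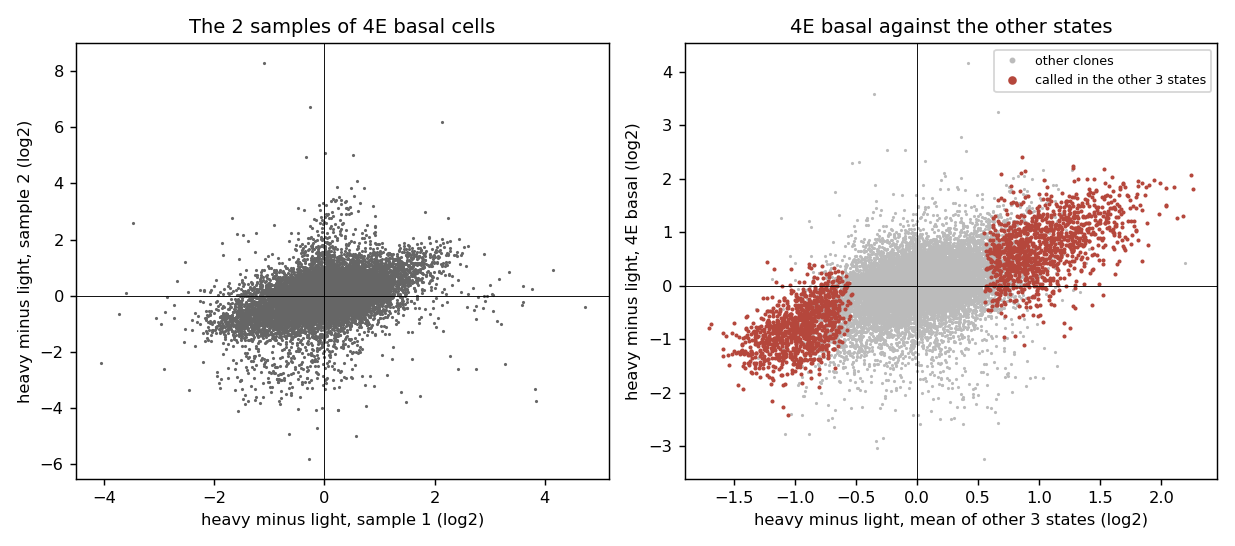
Left, heavy minus light in sample 1 (x) and sample 2 (y) of 4E basal cells, 1 point per clone in log2 units, with r = 0.41. Right, the mean difference of the other 3 states (x) and the difference in 4E basal cells (y), with the 2252 clones called in the other states in red, of which 92.9% lie in the quadrants of equal sign.

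Most clones that passed in the other states had the same sign in the eIF4E cells in serum. Over the 12 samples of NIH 3T3 basal, NIH 3T3 starved and 4E starved cells, the averaged heavy minus light difference passed at 2252 clones (14.8%) by limma, 1204 positive (7.94%) and 1048 negative (6.91%). None of the 4 samples described here enters that average, though they share the estimate of the spread and the reference. In 4E basal cells 2092 of the 2252 (92.9%) had the same sign, against 9779 (64.5%) of all clones. The positive ones had a median of 0.74 in 4E basal cells and of 0.98 where they were chosen, and the negative ones -0.79 and -0.94. The values where they were chosen are inflated by the choice. Fractions were separated in the same direction at 872 of the 1204 positive clones (72.4%, against 22.1% of all clones) and at 772 of the 1048 negative ones (73.7%, against 21.7%). They were separated in the opposite direction at 29 and 13.

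Smaller sets were called in single states. Of 46 clones (0.303%) positive in NIH 3T3 basal cells, 38 were separated in the same direction in 4E basal cells, as were 89 of 102 positive (0.672%) and 35 of 43 negative (0.283%) clones of 4E starved cells and all 29 positive clones (0.191%) of NIH 3T3 starved cells. Their medians in 4E basal cells were 1.09, 1.12, -0.85 and 1.30. Only 1 of the 2 negative clones (0.0132%) of NIH 3T3 basal cells and not the 1 negative clone (0.00659%) of NIH 3T3 starved cells was so separated. Across all clones, the difference in 4E basal cells correlated with that in NIH 3T3 starved cells at r = 0.52, in NIH 3T3 basal cells at 0.47 and in 4E starved cells at 0.43. The other states correlated among themselves at 0.49 to 0.60. The order of these values was not tested.

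The clones with the largest mean difference in the other states show the same in single samples. Clone H3025C05 averaged 2.26 there, and in 4E basal cells it read 0.34 and 0.61 in the heavy and -1.41 and -1.26 in the light samples, which makes 1.81 (SE 0.37, adjusted p = 0.0992 by limma). Clone H3059E05 averaged 2.24 there and read 0.69 and 0.44 in the heavy and -1.54 and -1.46 in the light samples, a difference of 2.07 (SE 0.37, adjusted p = 0.0967). For both clones the fractions were far apart against a spread of at most 0.26 within a fraction.

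On the negative side the largest were smaller in 4E basal cells. Clone H3156E02 averaged -1.70 in the other states and read 0.64 and -0.06 in the heavy and 1.16 and 1.00 in the light samples, which makes -0.79 (SE 0.60, adjusted p = 0.678 by limma). Its heavy samples in NIH 3T3 starved cells were far apart, at -1.98 and 0.75. The difference there was -2.56, against -1.29 in NIH 3T3 basal and -1.25 in 4E starved cells. Clone H3009D10 averaged -1.69 and read -0.63 and -0.85 in the heavy and -0.16 and 0.09 in the light samples, a difference of -0.71 (SE 0.39, adjusted p = 0.481). Heavy stood below light in every sample of both clones, without passing the test.

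Whether the fraction difference of eIF4E cells in serum departs from that of another state was tested as a difference of differences. Against NIH 3T3 basal cells, which differ in cell line, 0 clones (0%) passed by limma and 621 (4.09%) had an unadjusted p under 0.05, 240 positive (1.58%) and 381 negative (2.51%). Against 4E starved cells, which differ by serum, 0 passed (0%) and 793 (5.23%) had an unadjusted p under 0.05. Against NIH 3T3 starved cells 0 passed (0%) and 416 (2.74%) did, and against the mean of all 3 states 0 (0%) and 634 (4.18%). The median 95% half-width was 1.19 log2 units against a single state and 0.97 against the mean, so shifts of about 2-fold were not detectable for most clones. These intervals are not adjusted for the number of clones, and larger departures also failed to pass. An example is clone H3076B11, at -3.23 against NIH 3T3 basal cells (adjusted p = 0.857 by limma). The buffer and Arabidopsis control rows held 0 values in 4E basal and NIH 3T3 starved samples and were filled in the 8 samples of the other states, so the comparisons with NIH 3T3 basal and 4E starved cells cross this split and the one with NIH 3T3 starved cells does not. Leaving out 1 sample gave 0 to 29 clones against NIH 3T3 basal cells, the most without the 2nd NIH 3T3 heavy basal sample, and at most 19 in the other 3 comparisons, for the mean of all 3 states without the 1st 4E heavy basal sample.

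Clone H3048E03 came nearest to a difference from all other states together. It read 1.88 and 1.996 in the heavy and 0.52 and 0.18 in the light samples of 4E basal cells, a difference of 1.59 (SE 0.31, adjusted p = 0.0967). Heavy samples stood below light ones in each other state, by -0.35 in NIH 3T3 basal, -0.26 in 4E starved and -0.39 in NIH 3T3 starved cells. The departure from their mean was 1.92 (95% interval 1.16 to 2.68, adjusted p = 0.9988 by limma). Its heavy samples in the other states lay between 0.09 and 0.75, and the 2 heavy samples of 4E basal cells were its highest of all 16.

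Clone H3120E07 departed from the mean of the other states by 3.74 (95% interval 2.19 to 5.30, adjusted p = 0.9988), and by 2.53 (adjusted p = 0.619, without the 2nd heavy sample of 4E basal cells) to 4.95 (adjusted p = 0.0037, without the 1st) when 1 sample was left out. Clone H3070A01 departed in the negative direction by -1.57 (95% interval -2.28 to -0.85, adjusted p = 0.9988). It read -1.14 and -1.19 in the heavy and 0.28 and 0.29 in the light samples, and its difference lay between 0.06 and 0.22 in the other states. The columns of its 2nd heavy sample were 2.82 log2 units apart. Clone H3145D04 departed by -1.47 (95% interval -2.20 to -0.73, adjusted p = 0.9988 by limma). It read -0.92 and -0.87 in the heavy and 0.26 and 0.03 in the light samples, with equal columns in 2 of these 4 samples. Its difference was 0.41 in NIH 3T3 basal, 0.90 in 4E starved and -0.03 in NIH 3T3 starved cells.

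Against NIH 3T3 basal cells alone, the clone with the smallest p was H3076B11, with -3.23 (95% interval -4.46 to -1.998, adjusted p = 0.857). In 4E basal cells its fractions overlapped, with heavy at 0.22 and 0.01 and light at -0.17 and 0.28, and its difference was 3.29 in NIH 3T3 basal cells and between -0.11 and 0.26 in the starved states. Without the 2nd NIH 3T3 heavy basal sample it departed by -3.90 (adjusted p = 0.00877). Clone H3118D01 departed by -2.48 (95% interval -3.69 to -1.27), from -0.93 in 4E basal to 1.55 in NIH 3T3 basal cells. On the positive side clone H3110C07 departed by 2.12 (95% interval 1.12 to 3.11). It read 0.25 and 0.64 in the heavy and -0.78 and -0.59 in the light samples of 4E basal cells, where the difference was 1.13, against -0.99 in NIH 3T3 basal, -1.23 in 4E starved and 0.98 in NIH 3T3 starved cells. Its sign was positive in both states with empty control rows and negative in both states with filled ones. This split separates the same states as the combination of cell line and serum, so they cannot be told apart. Neither was tested.

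Against 4E starved cells, clones H3009C04 and H3072H07 had the smallest p. Their differences in 4E basal cells were small, at -0.28 (SE 0.37) and -0.29 (SE 0.34), and in 4E starved cells they were -3.26 and 2.40. The departures were 2.98 (95% interval 1.85 to 4.11) and -2.69 (95% interval -3.73 to -1.65), each with an adjusted p of 0.475. That of clone H3009C04 was 3.39 without the 1st light sample of 4E basal cells (adjusted p = 0.0444) and 2.57 without the 2nd (adjusted p = 0.941). It was 4.86 with only the lower column of each pair (adjusted p = 0.0425) and 1.11 with only the higher column (adjusted p = 0.98).

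Against NIH 3T3 starved cells, clone H3150F11 departed by 1.99 (95% interval 0.90 to 3.07). It read 1.13 and 2.002 in the heavy and 0.15 and 0.14 in the light samples, and its difference was between -0.57 and -0.12 in the other states. Clone H3009H12 departed by -2.14 (95% interval -3.17 to -1.10) and read 0.37 and 0.50 in the heavy and 2.11 and 1.66 in the light samples. Clone H3152H09 departed by -1.95 (95% interval -3.05 to -0.85), from -0.50 in 4E basal to 1.45 in NIH 3T3 starved cells. The adjusted p was 0.9999 for all of these.

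**Figure D4:**
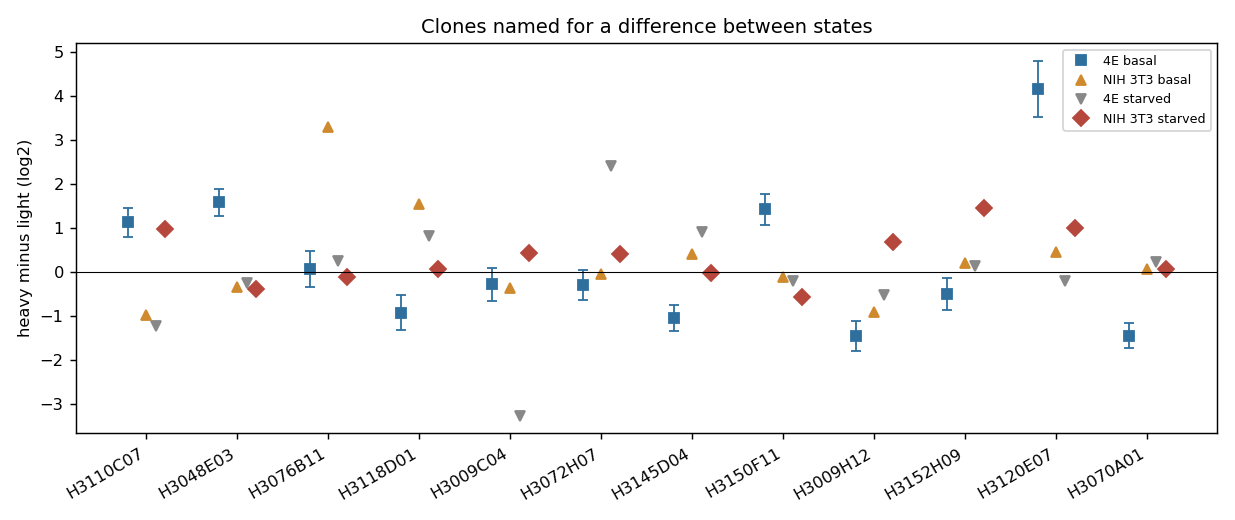
Heavy minus light difference (log2 units) in each of the 4 states for the 12 clones named for a difference between 4E basal cells and another state (the 2 smallest p in each direction and comparison), with the SE of the fit drawn for 4E basal. H3048E03 stands at 1.59 in 4E basal cells and between -0.39 and -0.26 elsewhere.

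The difference was not even over the clone collection. Read from the clone identifiers, the 8 plate rows took 1.69% of its sum of squares in 4E basal cells, against 0.465%, 0.12% and 0.0154% in NIH 3T3 basal, 4E starved and NIH 3T3 starved cells. Medians of rows A, C, E and G were positive, at 0.07 to 0.11, and those of rows B, D, F and H negative, at -0.08 to -0.06. The alternation was present in both samples, from -0.04 to 0.08 in sample 1 and from -0.13 to 0.13 in sample 2. It was widest in the 2nd heavy sample, without which the rows took 0.343%. Its part in the difference of single clones was not tested, but with each sample centred within plate rows 0 clones passed and the smallest adjusted p was 0.106. In NIH 3T3 basal cells the rows alternated the other way. Medians of rows A, C, E and G were -0.03 to -0.02 there, and those of rows B, D, F and H 0.02 to 0.08.

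The 159 plates took 3.42% and the 12 plate columns 0.3% of the sum of squares. In NIH 3T3 basal, 4E starved and NIH 3T3 starved cells the plates took 3.03%, 2.57% and 3.91%. The plate columns took 0.80%, 3.81% and 0.76% there. The share expected without any effect of position was 1.04% for plates and 0.07% for columns. Plate medians of 4E basal cells ran from -0.30 to 0.26. Over plates, those of sample 1 and sample 2 correlated at r = 0.43. Those of 4E basal cells correlated with those of NIH 3T3 basal, NIH 3T3 starved and 4E starved cells at 0.45, 0.33 and 0.25. With 78 to 96 clones a plate, these medians are small against the spread of single clones.

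**Figure D5:**
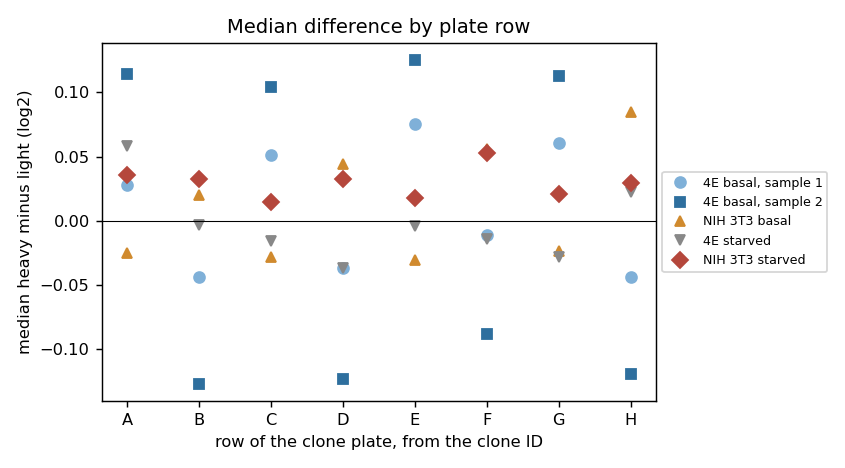
Median heavy minus light difference (log2 units, y) of the clones in each plate row (x), for both samples of 4E basal cells and for the other states. In sample 2 of 4E basal cells, rows A, C, E and G lie at 0.10 to 0.13 and rows B, D, F and H at -0.13 to -0.09.

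The difference also went with the level against the reference. Clones were ordered by their mean over the 12 samples of the other states and split into 5 classes of 3033 or 3034 clones. The lowest class had a median difference of -0.14 in 4E basal cells and the highest 0.11, with the classes between in order. Separated fractions with heavy below light made up 32.1% of clones in the lowest class and 17.1% in the highest, and with heavy above light the share went from 16.0% to 29.8%. The sample differences repeated best in the highest class, with r = 0.54 against 0.31 to 0.39 in the others. Across clones, the difference correlated with that level at r = 0.21, whereas the same value from the 12 samples outside each other state was -0.07 in NIH 3T3 basal, -0.14 in 4E starved and -0.04 in NIH 3T3 starved cells. This contrast between the states is a description and was not tested.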

How the data were processed

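The authors deposited log2 ratios (taken as base 2) of 32 columns, each polysome RNA hybridised with a common reference per the labels and the design text. Log base, centring, direction, scanner, background correction and spot filters are not stated in the sources used here. In all 16 pairs of columns (title numbers 1 with 2, 3 with 4) 1 column was never below the other (tolerance 1e-06), so each pair was averaged into 1 sample. Medians before centring lay between -0.0044 and 0.01 in the 4 samples compared. limma (version 3.58.1, R 4.3.3) fitted 8 group means to 16 samples, with 8 residual and 6.51 prior degrees of freedom, Benjamini-Hochberg adjustment over clones and a threshold of 0.05. The fit was tested on simulated data. An exact permutation test of 2 against 2 cannot go below p = 0.333, so none was run. Precision is limited by the number of arrays.

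Clones were named by rule, at most 2 positive and 2 negative in each comparison: the largest among those passing or, where none passed, the smallest p. The comparisons, lists and this rule were chosen with earlier results of these data known. The gene lists and marker lists written for the case that clones could be matched to genes were not used. Alternatives tried are in the closing section.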

Additional observations from a re-analysis of the deposited data

Results flagged for a closer look

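For 8 of the clones named above, the 2 heavy samples lay wholly on one side of the light ones in 4E basal cells and wholly on the other side in another state. None of these departures passed by limma over all clones (adjusted p from 0.475 to 0.9999). The clones had been named for a small p of a departure, a choice that favours opposite separation. Against NIH 3T3 basal cells they were H3110C07 (2.12), H3048E03 (1.94), H3118D01 (-2.48) and H3145D04 (-1.45 log2 units). Against 4E starved cells they were H3110C07 (2.36), H3048E03 (1.85), H3118D01 (-1.74), H3072H07 (-2.69) and H3145D04 (-1.94). Against NIH 3T3 starved cells they were H3048E03 (1.98), H3150F11 (1.99), H3009H12 (-2.14) and H3152H09 (-1.95). Over all 15169 clones, 674 were separated in opposite directions in 4E basal and NIH 3T3 basal cells. The count was 657 against 4E starved and 524 against NIH 3T3 starved cells.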

How the results depend on the processing

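With each of the 32 columns counted as a replicate, which treats the 2 columns of a sample as independent, 3079 clones passed for heavy minus light in 4E basal cells (1527 positive, 1552 negative), 607 for the departure from NIH 3T3 basal, 921 from 4E starved, 320 from NIH 3T3 starved and 721 from the mean of the 3. The clones called in the other 3 states then numbered 5785, of which 80.9% had the same sign in 4E basal cells. Array weights gave 39 clones for heavy minus light, a threshold of 0.1 gave 34, and the lower column of each pair gave 1 for the departure from 4E starved cells. The 5 counts were 0 in the other settings: higher column, no centring, quantile normalization, scaling to 1 median absolute deviation, centring within plate rows, robust empirical Bayes, other clone filters and fits of only the groups compared (not run for the mean of the 3 states, which uses all groups). Turning the sign of the ratio swaps positive and negative throughout. Separated fractions were 42.9% of clones with the higher column and 28.1% when all 8 columns had to separate. The correlation of the sample differences was 0.22 with crossed samples and 0.51 for clones with unequal columns.

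Leaving out 1 sample gave 1 to 31 clones for heavy minus light, 0 to 29 for the departure from NIH 3T3 basal, 0 to 12 from 4E starved (12 without the 1st 4E light basal sample, 11 without the 1st 4E heavy basal sample), 0 to 10 from NIH 3T3 starved (10 without the 1st 4E heavy basal sample) and 0 to 19 from the mean (19 without the 1st 4E heavy and 13 without the 1st 4E light basal sample). The same sign share was then 89.5 to 92.0% and the share of plate rows 0.343 to 2.93%. Sample numbers are shared between groups by title only. The deviations of heavy and light sample 1 from sample 2 correlated at 0.21 over clones, and with a replicate block by this number, over all samples or within each state (added after the data were seen, as were the plate row centring and the threshold of 0.1), 0 clones passed in any of the 5 comparisons, with a smallest adjusted p of 0.138 and 0.117 for heavy minus light. No clone named for one of the 5 comparisons changed direction in it under these alternatives, the turned sign aside. Direction could not turn under array weights, robust empirical Bayes, replicate blocks or fits of fewer groups, which leave the difference unchanged. Signal over background is not used here.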

Other observations

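In 41 clones (0.27% of 15169) the fractions were separated in 4E basal cells and separated in the opposite direction in each of the other 3 states, 19 with heavy above light and 22 with heavy below light. Counted the same way, 39 clones (0.257%) set NIH 3T3 starved cells against the rest, 19 (0.125%) NIH 3T3 basal and 18 (0.119%) 4E starved cells. Separation in the same direction in all 4 states was found at 776 positive and 654 negative clones of the 15169.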
